A study of Saccharomyces cerevisiae with 22 samples.

Results

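Trehalose is made in budding yeast, Saccharomyces cerevisiae, by a protein complex of 4 gene products and is split by 3 trehalases. The 7 genes were taken by name from a table of 5381 genes: TPS1, TPS2, TPS3 and TSL1 for the trehalose synthase complex, and NTH1, NTH2 and ATH1 for the trehalases. All 7 were in the table and passed the count filter of every test below.

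Trehalose is a disaccharide of glucose that yeast stores as a carbohydrate reserve and as a protectant against stress. Tps1 joins the glucose of UDP-glucose to glucose 6-phosphate, Tps2 removes the phosphate, and the larger subunits Tps3 and Tsl1, which resemble each other, stabilise and regulate the complex. Nth1 is the main cytosolic trehalase and is switched on by protein kinase A together with 14-3-3 proteins. Nth2 is its paralog, and Ath1 is the acid trehalase that acts on trehalose outside the cytosol. Several of these genes are classical targets of Msn2 and Msn4, transcription factors that bind the stress response element when protein kinase A activity falls.

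Ribosome footprints, the mRNA fragments that ribosomes shield from RNase I, and mRNA were sequenced from cells starved of glucose and from cells growing in it. Starved EY0690 and starved BY4741 cells had spent 15 min in synthetic complete medium without glucose, and glucose-grown EY0690 and BY4741 cells were in log phase in the same medium with glucose. EY0690 is labelled as a w303 strain, although the growth label of 8 EY0690 samples names BY4741 only, and BY4741 is a laboratory strain of the S288C background. All cultures grew at 30 °C to an OD600 of 0.3 to 0.4, and all samples received cycloheximide, which halts translation elongation, at 100 ug/ml for 1 min. Each strain and condition had 2 footprint and 2 polyA RNA libraries, and BY4741 had 1 total RNA library per condition. The EY0690 total and RiboZero RNA was deposited as 1 pooled column per condition. The labels do not say that libraries of a group came from separate cultures, so the p-values measure the spread between these libraries.

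Downstream counts, those beyond the initiation region of each coding sequence, totalled 698310 to 8110916 per footprint library and 1146371 to 7003745 per polyA library. The second BY4741 footprint libraries stood apart: their log2 levels correlated with matching polyA RNA at r = 0.942 when starved and 0.946 in glucose, over 5018 genes. The other 6 footprint libraries had an r of 0.820 to 0.873. Calls of the footprint, occupancy and initiation region tests are therefore also given without that pair where they changed. Orders and ranges of libraries include the pair unless stated. The histidine gene HIS3, which is mutated in both strain backgrounds, does not check the labels. It had 3.80 to 17.4 counts-per-million (CPM) in EY0690 footprints, against 63.0 to 143 in BY4741 footprints. LEU2, URA3 and MET17 were not found by these names among the deposited genes, so the strain labels were not checked with them.

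The 7 genes lie on 4 chromosomes of build R64, each with 1 coding exon and no intron. TPS1 (YBR126C) is at chrII:488905-490392 on the minus strand and TPS2 (YDR074W) at chrIV:593893-596583 on the plus strand. TPS3 (YMR261C) is at chrXIII:790205-793369 on the minus strand and TSL1 (YML100W) at chrXIII:70624-73920 on the plus strand. Of the trehalases, NTH1 (YDR001C) is at chrIV:450220-452475 and NTH2 (YBR001C) at chrII:238941-241283, both on the minus strand, and ATH1 (YPR026W) is at chrXVI:615379-619014 on the plus strand.

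The stress response element, searched as AGGGG on one strand or CCCCT on the other, was most frequent upstream of TPS1, TSL1 and TPS2. In the 500 bases before the start codon TPS1 held 6 matches, TSL1 5, TPS2 4 and TPS3 2. NTH1 held 3, ATH1 1 and NTH2 none. Of 5378 upstream regions of the same length, 34.4% held at least 1 match, 8.31% at least 2, 1.95% at least 3, 0.446% at least 4 and 0.167% at least 5, and the TPS1 region was the 1 region with 6. The counts are descriptions of letters, and no binding was measured. The stretches below are shown because they carry these matches, in capitals. They lie within those 500 bases and are genomic sequence of R64, written 5′ to 3′ on the strand of the gene.
TPS1, upstream stretch, chrII:490593-490892, minus strand: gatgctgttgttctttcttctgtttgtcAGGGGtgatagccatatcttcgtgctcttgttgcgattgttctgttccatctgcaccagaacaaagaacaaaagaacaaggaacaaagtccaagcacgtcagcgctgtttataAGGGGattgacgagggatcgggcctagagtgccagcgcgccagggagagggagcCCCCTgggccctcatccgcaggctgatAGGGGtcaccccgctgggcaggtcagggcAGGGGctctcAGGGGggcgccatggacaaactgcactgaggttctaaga
TPS2, upstream stretch, chrIV:593393-593692, plus strand: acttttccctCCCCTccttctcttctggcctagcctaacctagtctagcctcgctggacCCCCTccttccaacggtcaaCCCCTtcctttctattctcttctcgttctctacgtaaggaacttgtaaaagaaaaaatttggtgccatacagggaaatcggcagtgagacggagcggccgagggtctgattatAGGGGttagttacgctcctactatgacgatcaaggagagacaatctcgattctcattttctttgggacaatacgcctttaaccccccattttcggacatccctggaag
TSL1, upstream stretch, chrXIII:70224-70423, plus strand: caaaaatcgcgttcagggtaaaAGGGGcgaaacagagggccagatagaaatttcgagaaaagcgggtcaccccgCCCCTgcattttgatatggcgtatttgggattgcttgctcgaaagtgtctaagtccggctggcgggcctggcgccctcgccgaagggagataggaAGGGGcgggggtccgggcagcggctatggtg
NTH1, upstream stretch, chrIV:452676-452875, minus strand: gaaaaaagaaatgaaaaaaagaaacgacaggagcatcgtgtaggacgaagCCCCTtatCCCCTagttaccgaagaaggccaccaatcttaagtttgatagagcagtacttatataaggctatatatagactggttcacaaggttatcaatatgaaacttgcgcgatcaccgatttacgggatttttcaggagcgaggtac
The TPS1 and TPS2 stretches hold all of their matches. The TSL1 stretch holds 3 of 5, the others lying 179 and 165 bases before the start codon, and the NTH1 stretch holds 2 of 3, the last lying 152 bases before it. The map of matches sets these beside the other genes.

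**Figure D1:**
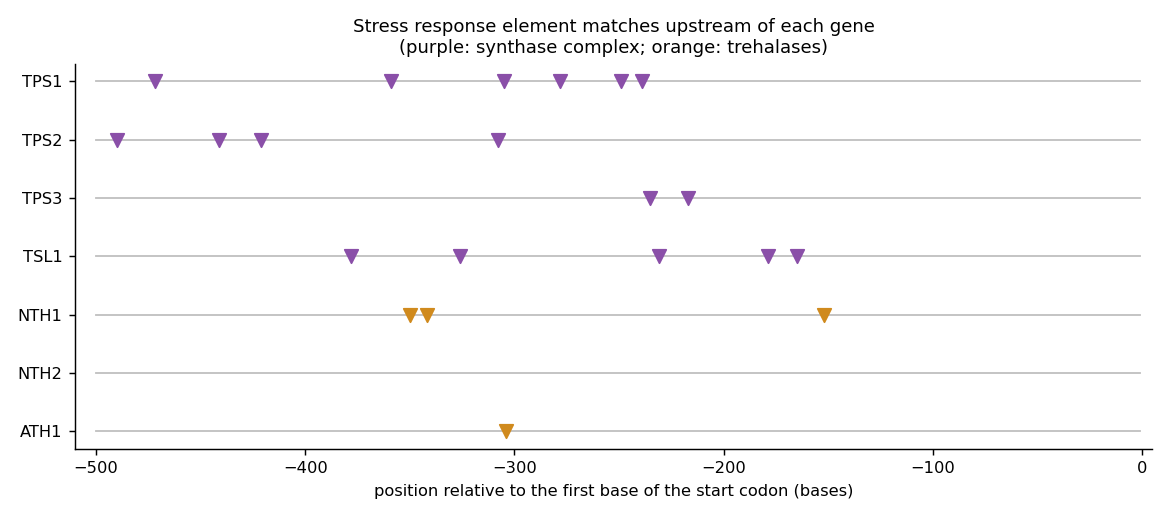
Positions of stress response element matches (triangles, first base) in the 500 bases before the start codon of each gene, with distance to the first base of the start codon in bases on the x axis. TPS1 has 6 triangles, TSL1 5 and TPS2 4, while NTH2 has none.

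All 7 mRNAs were higher in starved cells, and the synthase complex more so than the trehalases by the median over both strains. CPM are scaled by TMM, and changes are log2 ratios of starved over glucose from edgeR's quasi-likelihood test, adjusted by Benjamini-Hochberg over 5304 genes, with their standard error (SE). TMM scaling makes each change relative to the average gene, and the median change of all genes was -0.03. The median change was 2.26 over the complex and 1.20 over the trehalases. In EY0690 the sets met, mean CPM being 3.37-fold higher for ATH1 and 3.26-fold for TPS3. All 4 complex genes and all 3 trehalase genes passed an adjusted p of 0.05 as higher, where 20.4% of all genes did. RNA came from whole cultures, so a change in every cell and a change in some cells cannot be told apart.

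TPS2, the phosphatase, had the largest change of the 7 in polyA RNA over both strains and in BY4741, and in EY0690 alone TSL1 at 2.53 was above TPS2 at 2.35. It had 685 and 831 (EY0690) and 447 and 436 (BY4741) CPM in the starved libraries, against 139 and 161 (EY0690) and 50.9 and 68.0 (BY4741) CPM in the glucose libraries. The lowest starved library lay well above the highest glucose library. The change was 2.62 ± 0.18 (SE, 8 libraries), which is 6.15-fold, with an edgeR adjusted p of 3.05e-07.

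TSL1, the regulatory subunit, had 445 and 466 (EY0690) and 107 and 186 (BY4741) CPM of polyA RNA in the starved libraries, against 75.1 and 84.2 (EY0690) and 18.0 and 33.0 (BY4741) CPM in glucose. Starved and glucose libraries did not overlap, and within each condition both EY0690 libraries were above both BY4741 libraries. The change was 2.52 ± 0.22 with an edgeR adjusted p of 2.33e-06.

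TPS1, the synthase itself, was the most abundant of the 7 per length in both conditions. Its polyA RNA stood at 1134 and 1218 (EY0690) and 658 and 361 (BY4741) CPM in the starved libraries, against 284 and 351 (EY0690) and 97.5 and 135 (BY4741) CPM in glucose. The highest glucose library, an EY0690 one, was close below the lowest starved library, a BY4741 one. The change was 2.01 ± 0.21 with an edgeR adjusted p of 1.09e-05. TPS3, the other regulatory subunit, changed by 1.78 ± 0.18, with 183 to 372 CPM in starved cells and 61.7 to 115 CPM in glucose, and these ranges did not meet.

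Among the trehalases, the acid trehalase gene ATH1 changed most in polyA RNA and was the least abundant. ATH1 had 42.1 to 99.0 CPM in starved cells and 15.9 to 33.5 CPM in glucose, a change of 1.59 ± 0.21 with an edgeR adjusted p of 8.06e-05. NTH1 had 371 and 411 (EY0690) and 183 and 171 (BY4741) CPM in starved libraries, against 102 and 185 (EY0690) and 88.3 and 94.1 (BY4741) CPM in glucose. The second EY0690 glucose library lay above both starved BY4741 libraries, so NTH1 was the 1 gene of the 7 whose conditions overlapped across strains. Its change was 1.20 ± 0.19, and that of NTH2 was 0.88 ± 0.14, the smallest of the 7. Within each strain, every starved library was above every glucose library for 7 of 7 genes, where 21.9% of all genes were so ordered in both strains. Across the strains together, 12.1% of all genes were so ordered in polyA RNA.

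**Figure D2:**
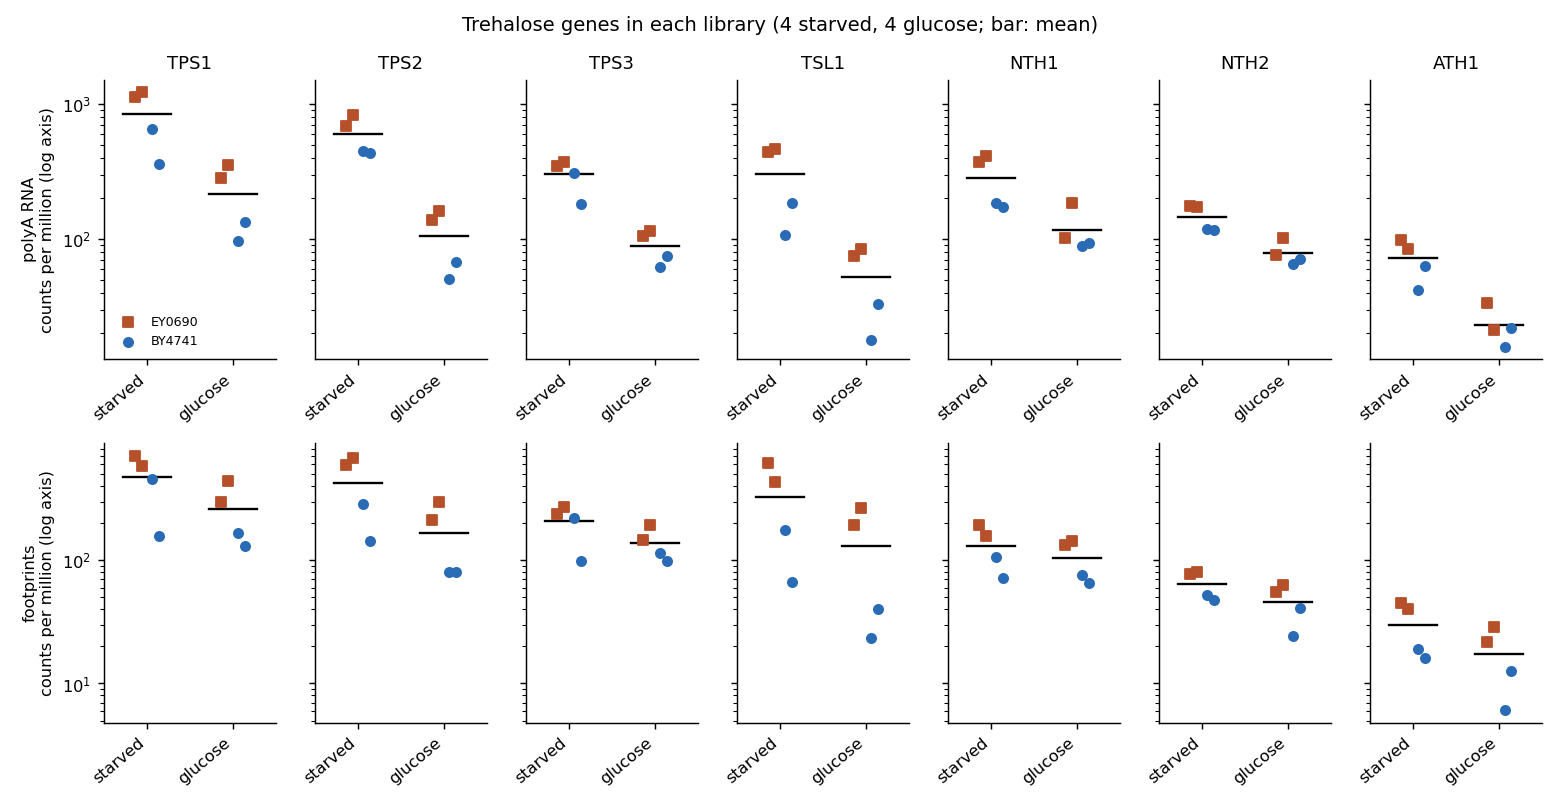
CPM (log axis) of each gene in each polyA RNA library (top row) and footprint library (bottom row), starved left of glucose, EY0690 as squares and BY4741 as circles, with the mean as a bar. In polyA RNA 6 of 7 genes have all starved points above all glucose points, where 12.1% of all genes have. In footprints none of the 7 has, where 3.83% of all genes have. EY0690 footprint squares are ordered so for 7 of 7, where 25.5% of all genes are.

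Fewer of the changes passed in footprints, and those that passed were TPS2 and TSL1. Both rose in starved cells, 2 of 4 complex genes and 0 of 3 trehalase genes being called, where 2.93% of 5018 genes were called higher and 0.259% lower. The median footprint change was 1.15 over the complex and 0.51 over the trehalases, against -0.03 over all genes. Of all genes tested, 3.83% had every starved footprint library above every glucose library, and none of the 7 was among them. With the BY4741 pair that stood apart set aside, TPS1 and TPS3 no longer overlapped, and the other genes still did. TPS1 then had at least 454 CPM starved and at most 441 CPM in glucose, and TPS3 at least 219 and at most 194 CPM. The share of all genes so ordered without the pair was not computed.

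TSL1 footprints stood at 617 and 436 (EY0690) and 175 and 67.2 (BY4741) CPM in starved libraries, against 194 and 264 (EY0690) and 23.3 and 39.9 (BY4741) CPM in glucose libraries. EY0690 in glucose was thus above BY4741 starved, while within each strain starved was above glucose. The change was 1.56 ± 0.34 with an edgeR adjusted p of 0.0288. TPS2 footprints stood at 600 and 682 (EY0690) and 287 and 143 (BY4741) CPM in starved libraries, against 213 and 295 (EY0690) and 80.9 and 80.7 (BY4741) CPM in glucose. The same order within strains held, and the change was 1.37 ± 0.27 with an edgeR adjusted p of 0.0146. In EY0690 alone TSL1 changed by 1.22 with an edgeR adjusted p of 0.0061 and TPS2 by 1.35 with 0.00162. In BY4741 alone neither passed, at 1.93 with 0.712 for TSL1 and 1.43 with 0.833 for TPS2.

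The other 5 genes did not pass in footprints. TPS1 had 709 and 587 (EY0690) and 454 and 156 (BY4741) CPM in starved libraries, against 299 and 441 (EY0690) and 168 and 132 (BY4741) CPM in glucose, and the second starved BY4741 library lay among the glucose ones. Its log2 ratio of 0.92 ± 0.33 had an edgeR adjusted p of 0.190 and a 95% interval of 0.27 to 1.56. The log2 ratio was 0.59 ± 0.26 for TPS3, 0.82 ± 0.31 for ATH1 and 0.51 ± 0.22 for NTH2, with edgeR adjusted p-values of 0.319, 0.211 and 0.300. NTH1, with 192 and 157 (EY0690) and 106 and 71.6 (BY4741) CPM in starved libraries against 133 and 144 (EY0690) and 75.3 and 65.0 (BY4741) CPM in glucose, had a log2 ratio of 0.33 ± 0.21, with a 95% interval of -0.07 to 0.74. In EY0690 the starved libraries were above the glucose libraries for all 7 genes, and in BY4741 for TPS2, TSL1, NTH2 and ATH1, where 25.5% of all genes were so ordered in EY0690, 16.2% in BY4741 and 8.83% in both. In the first BY4741 libraries alone, starved was above glucose for all 7, and the share of all genes was not computed.

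These calls moved with single libraries. Left out one at a time, the first BY4741 glucose, first EY0690 glucose, first EY0690 starved and second EY0690 glucose footprint libraries each left 0 of the 7 called. The log2 ratios then stayed at 1.29 to 1.48 for TPS2 and 1.39 to 1.72 for TSL1, with edgeR adjusted p-values from 0.0501 to 0.130. Without the second starved EY0690 library 1 was called, TSL1. Without the second starved BY4741 library 4 were called, TPS1 and TPS3 being added with edgeR adjusted p-values of 0.0114 and 0.0468. Without both BY4741 libraries that stood apart, 4 were called, TPS1 at 1.02 with an edgeR adjusted p of 0.0141 and ATH1 at 1.05 with 0.0316 being added to TPS2 and TSL1. With library number as a block, 3 were called, TPS1 being added at 0.84 with an edgeR adjusted p of 0.0483, and 324 genes in all were higher and 105 lower, against 147 and 13 without the block.

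Footprints per mRNA were lower in starved cells for all 7 genes in the value fitted over both strains. No gene of the 7 passed in the fit without a block for library number. This ribosome occupancy change, the footprint change minus the polyA change in 1 model of 16 libraries, passed as lower for 1.06% and as higher for 0.279% of 5018 genes. It was -1.18 ± 0.32 for TPS2, with an edgeR adjusted p of 0.0803, and -1.13 ± 0.33 for TPS3 with 0.102. TPS1 stood at -1.03 ± 0.41, TSL1 at -0.90 ± 0.44, NTH1 at -0.81 ± 0.28, ATH1 at -0.73 ± 0.36 and NTH2 at -0.31 ± 0.24. The medians were -1.08 over the complex and -0.73 over the trehalases, against 0.05 over all genes. The first BY4741 libraries went the other way for TSL1, NTH2 and ATH1. Their log2 footprints per polyA RNA were 0.71, -1.17 and -1.13 starved, against 0.37, -1.41 and -1.38 in glucose. The other genes of the 7 fell in these libraries, and all 7 fell in each other set of same-numbered libraries.

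With library number as a block, TPS2 at -1.23 and TPS3 at -1.16 passed as lower, with edgeR adjusted p-values of 0.0336 and 0.0348, and 152 genes were lower and 94 higher in all. The same genes passed without the BY4741 footprint pair that stood apart, with 0.0456 and 0.0475. Without the first starved BY4741 footprint library all 4 complex genes passed as lower, from TPS1 at -1.47 to TSL1 at -1.34. TPS2 alone passed without the second starved BY4741 footprint library, and TPS3 alone without the second starved BY4741 polyA library.

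In glucose the complex genes had high occupancy among all genes. Ranked by footprints per polyA RNA within each pair of libraries, the 4 complex genes stood at percentiles 72.7 to 99.1 in glucose, and TSL1 was the highest of the 7 in both EY0690 pairs. In starved cells the 4 spread over percentiles 4.11 to 87.3, the lowest values coming from the second BY4741 pair. Starved and glucose percentiles did not meet for TPS1, TPS2 and TPS3, and overlapped for TSL1, at 5.48 to 87.3 starved and 81.8 to 99.1 in glucose. NTH1 stood at percentiles 8.17 to 46.4 starved and 57.2 to 81.9 in glucose, which did not meet either. The share of all genes so separated was not computed. NTH2 was low in both, at percentiles 7.79 to 34.7 starved and 23.0 to 53.3 in glucose. ATH1 spread over percentiles 2.09 to 36.1 starved and 23.8 to 87.1 in glucose.

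**Figure D3:**
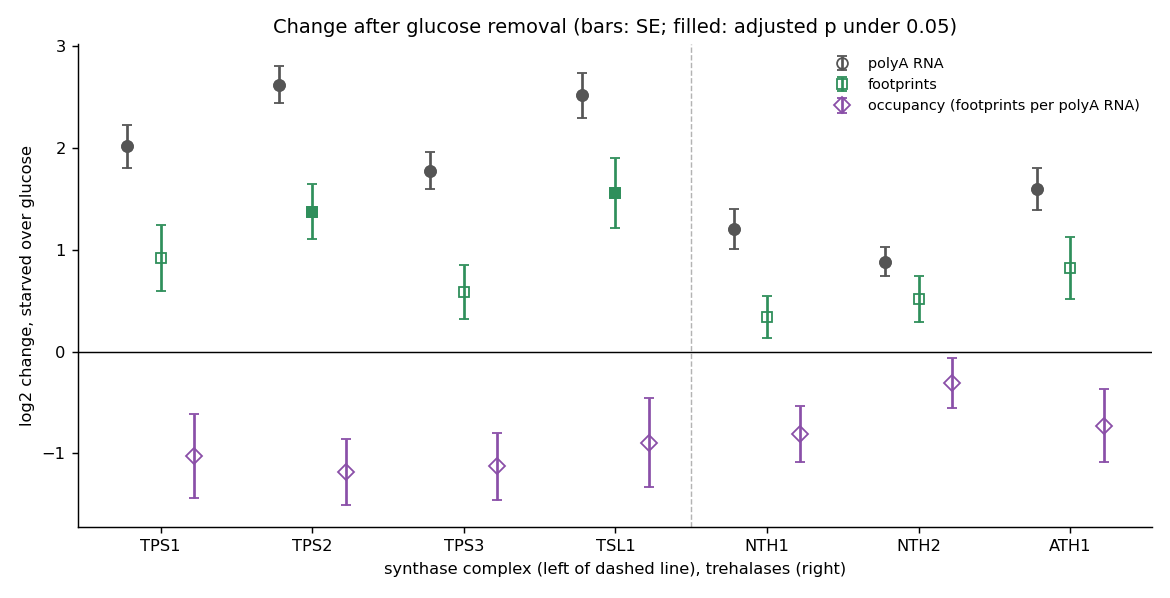
Log2 change, starved over glucose, of polyA RNA (circles), footprints (squares) and occupancy (diamonds) for each gene, with SE as bars and filled symbols at an adjusted p under 0.05. All 7 polyA changes are filled, from 0.88 to 2.62, the TPS2 and TSL1 footprint changes are filled, and the 7 occupancy changes lie below 0 and are open. The fits shown have no block for library number.

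A larger share of the TSL1 and TPS2 footprints lay in the initiation region in starved cells. The deposited counts split each coding sequence at the end of an initiation region, whose bounds the sources used here leave unstated. The first 60 coding bases of the called genes are printed because the region lies at the start of the coding sequence, with the start codon in capitals.
TSL1, first 60 coding bases, chrXIII:70624-70683, plus strand: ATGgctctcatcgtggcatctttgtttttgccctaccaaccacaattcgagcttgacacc
TPS2, first 60 coding bases, chrIV:593893-593952, plus strand: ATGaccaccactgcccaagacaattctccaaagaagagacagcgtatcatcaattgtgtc

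For TSL1, 33.2% and 24.0% (EY0690) and 25.9% and 33.0% (BY4741) of the footprint counts lay in the initiation region in starved libraries, against 4.06% and 1.92% (EY0690) and 5.88% and 1.01% (BY4741) in glucose libraries. Every starved library was above every glucose library by a wide gap. Summed over libraries this was 884 of 2919 counts, 30.3% (Wilson 95% interval 28.6 to 32.0%), in starved cells, and 21 of 885 counts, 2.37% (1.56 to 3.60%), in glucose. For TPS2 the shares were 39.4% and 23.9% (EY0690) and 36.1% and 13.5% (BY4741) in starved libraries, against 7.56% and 5.39% (EY0690) and 7.95% and 0.753% (BY4741) in glucose. The lowest starved TPS2 share, in the second BY4741 library, was still above the highest glucose share. Its sums gave 1172 of 4124 counts, 28.4% (27.1 to 29.8%), in starved cells and 60 of 1565 counts, 3.83% (2.99 to 4.90%), in glucose. These intervals and the others printed here cover counting error only, and for single libraries of TSL1 and TPS2 they were at most 10.5 percentage points wide.

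TPS1 had 11.6% to 24.8% of its footprints in the initiation region in starved libraries and 4.86% to 8.41% in glucose. TPS3 had 6.25% to 13.6% in starved libraries and 3.40% to 5.52% in glucose. So for 4 of 4 complex genes no starved library overlapped a glucose library, where 5.80% of 4848 genes were so ordered. The 3 trehalase genes overlapped: the mean share was 6.96% starved and 4.83% in glucose for NTH1, 7.16% starved and 4.19% in glucose for NTH2, and 4.07% starved and 1.53% in glucose for ATH1. NTH2 reached 19.8% in the second starved BY4741 library alone, and ATH1 rested on 12 initiation counts in starved cells and 3 in glucose. The median gene had a mean share of 10.03% in starved and 7.50% in glucose libraries, and the strains differed in where the genes stood against it. TPS1, TPS2 and TSL1 were above the median gene in starved cells of both strains. TPS3 was below it in starved EY0690, at 7.42% against 11.2%, and above it in starved BY4741, at 12.9% against 8.81%. In glucose TPS1 at 7.11% and TPS2 at 6.47% were above the median gene of EY0690, at 5.96%, and the other 5 genes in EY0690 and all 7 in BY4741 were below it. In polyA RNA the same region held 5.20% or less of the counts of any of the 7 genes.

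The test of this shift, region by condition with each library as its own block, is relative to the average gene. Its log2 change was 3.50 ± 0.54 for TSL1, with an edgeR adjusted p of 0.000525, and 2.68 ± 0.53 for TPS2, with 0.00456, where 2.10% of 4848 genes passed as higher and 0.908% as lower. TPS1 at 1.25 ± 0.48 (adjusted p of 0.180), TPS3 at 1.09 ± 0.51 (0.277), NTH1 at 0.41 ± 0.54, NTH2 at 0.46 ± 0.82 and ATH1 at 1.48 ± 1.07 did not pass. TSL1 and TPS2 kept their calls with every single footprint library left out and without the BY4741 pair that stood apart, at 2.94 and 2.38. With both regions summed, the footprint response was 1.94 ± 0.34 for TSL1 and 1.77 ± 0.30 for TPS2, with edgeR adjusted p-values of 0.004 and 0.0034.

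**Figure D4:**
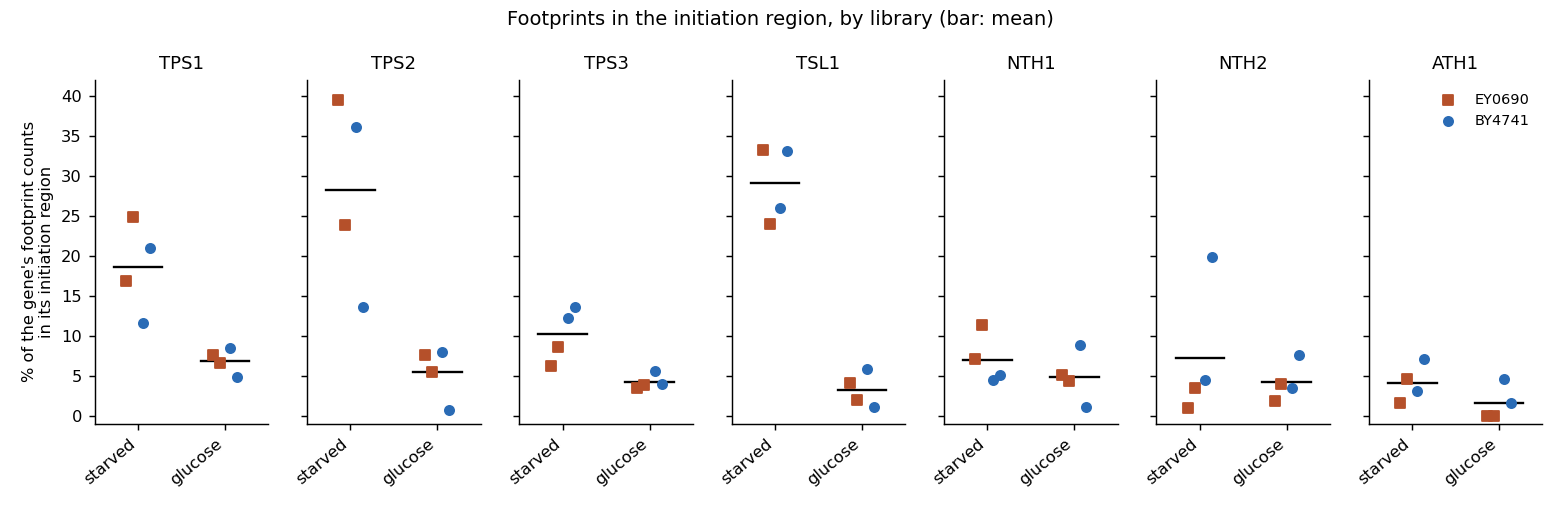
Share of each gene's footprint counts that lie in its initiation region (y axis, percent) in each library, starved left of glucose, EY0690 as squares and BY4741 as circles, with the mean as a bar. TSL1 lies between 24.0% and 33.2% in starved libraries and between 1.01% and 5.88% in glucose, while the trehalases overlap.

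The complex genes outweighed the trehalase genes more in starved cells than in glucose in polyA RNA. Levels between genes are compared per length here, as CPM per kilobase of the listed length (RPKM). In polyA RNA the 4 complex genes summed to 4.73 and 4.96 (EY0690) and 5.14 and 3.62 (BY4741) times the 3 trehalase genes in starved libraries, against 3.42 and 2.73 (EY0690) and 1.54 and 1.92 (BY4741) times in glucose. The lowest starved library was above the highest glucose library, with means of 4.61 ± 0.68 starved and 2.40 ± 0.84 in glucose (SD, n = 4 each). In footprints the ratio was 7.36 and 7.54 (EY0690) and 7.15 and 3.71 (BY4741) in starved libraries, against 4.34 and 5.55 (EY0690) and 4.09 and 3.24 (BY4741) in glucose. The groups overlapped through the second starved BY4741 library, and the means were 6.44 ± 1.83 starved and 4.30 ± 0.95 in glucose.

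TPS1 led the RPKM order in both assays and both conditions, and ATH1 was last, each in 4 of 4 libraries against its neighbour. TPS1 averaged 567 ± 272 RPKM starved and 146 ± 80.9 RPKM in glucose in polyA RNA, and ATH1 19.9 ± 6.84 RPKM starved and 6.34 ± 2.04 RPKM in glucose. TPS2 was second in starved cells in both assays, again in 4 of 4 libraries. The middle of the order was not settled. In starved footprints TSL1 was above TPS3, and TPS3 above NTH1, in 2 of 4 libraries each. In glucose footprints the same held for NTH1 over TPS3, TPS3 over TSL1 and TSL1 over NTH2.

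Within the complex, the share of TPS2 in summed polyA RPKM was 24.1 ± 4.90% starved and 17.1 ± 0.298% in glucose, and that of TSL1 9.03 ± 3.10% starved and 6.62 ± 1.16% in glucose. TPS1 made up 56.6 ± 6.55% starved and 62.6 ± 2.85% in glucose. The ratio of TSL1 to TPS3, the alternative regulatory subunits, was 1.36 ± 0.84 starved and 0.79 ± 0.58 in glucose in footprints. By strain, EY0690 stood at 1.28 to 2.47 in its 4 footprint libraries and BY4741 at 0.195 to 0.767 in its 4. NTH1 exceeded NTH2 per length in all 16 libraries, by 1.38 to 3.20 times.

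In total RNA, read without polyA selection, all 7 genes were also higher in starved cells, in single libraries with no replicate. In BY4741 TSL1 had 532 CPM starved and 62.4 CPM in glucose, 8.53-fold with an exact 95% counting interval of 7.13 to 10.3, and it was at percentile 99.3 of all genes. TPS2 was 5.22-fold higher (4.51 to 6.07), TPS1 4.14-fold (3.57 to 4.82) and TPS3 2.52-fold (2.20 to 2.89). The trehalases followed at 2.08-fold for NTH2, 1.98-fold for ATH1 and 1.81-fold for NTH1. In all, 5 of the 7 were at or above 2-fold, where 8.36% of 5002 genes were. With library size in place of TMM, NTH2 at 1.88-fold left the group, and 4 of 7 stood beside 6.80% of genes.

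In the pooled EY0690 total and RiboZero RNA, which is the authors' pooled value and has no replicate, TSL1 was 4.84-fold higher, TPS2 4.05-fold, ATH1 3.49-fold and TPS1 3.01-fold. NTH1 stood at 2.72-fold, TPS3 at 2.70-fold and NTH2 at 1.88-fold, where 10.3% of 5229 genes were at or above 2-fold. Whether total RNA and polyA RNA changed differently was tested with the 2 BY4741 total RNA libraries beside the 8 polyA libraries. No gene of 5310 passed with edgeR, 156 had an unadjusted p under 0.05, and DESeq2 called 2. The difference, total RNA change minus polyA change, was 0.63 ± 0.48 for TSL1, with a 95% interval of -0.32 to 1.57, and -0.55 to 0.23 for the other 6 genes.

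EY0690 carried more of these mRNAs than BY4741 by mean CPM in both conditions. Tested as EY0690 over BY4741 with condition as a covariate, 7 of 7 genes were higher in polyA RNA, where 20.2% of all genes were, and 6 of 7 in footprints, where 11.2% were. TSL1 had the largest difference, 1.64 ± 0.22 in polyA RNA and 2.49 ± 0.35 in footprints, with edgeR adjusted p-values of 0.000153 and 0.00108. Its EY0690 footprints averaged 526 ± 128 CPM starved and 229 ± 49.8 CPM in glucose, against 121 ± 76.5 CPM and 31.6 ± 11.8 CPM in BY4741 (SD, n = 2 each).

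TPS2 differed by 1.05 ± 0.18 in polyA RNA and 1.62 ± 0.27 in footprints, and TPS1 by 1.33 ± 0.21 in polyA RNA and 1.20 ± 0.33 in footprints. In polyA RNA NTH1 differed by 0.90 ± 0.19, ATH1 by 0.69 ± 0.21 and NTH2 by 0.48 ± 0.14. In footprints NTH1 differed by 0.99 ± 0.21, ATH1 by 1.33 ± 0.31 and NTH2 by 0.75 ± 0.22. TPS3 differed by 0.62 ± 0.18 in polyA RNA and by 0.69 ± 0.26 in footprints, and the footprint value did not pass, with an edgeR adjusted p of 0.0798. In footprints both EY0690 libraries were above both BY4741 libraries at both conditions for 7 of 7 genes, where 16.2% of all genes were, and in polyA RNA for 6 of 7, where 22.1% were. The exception was ATH1 in glucose, with polyA RNA at 33.5 and 21.1 CPM in EY0690 and 15.9 and 21.8 CPM in BY4741. The strains also differ in library depth, EY0690 having the shallower libraries, and the part of strain, culture and library preparation in these differences cannot be told apart.

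The TPS1 and NTH2 footprint calls did not hold with every library. TPS1 was lost without any 1 of the 4 EY0690 footprint libraries or the second BY4741 glucose library, with edgeR adjusted p-values of 0.0521 to 0.0863. NTH2 was lost without any 1 of the EY0690 footprint libraries or the first BY4741 glucose library, with 0.0699 to 0.103. TPS3 passed without the first starved BY4741 footprint library, at 0.96 with an edgeR adjusted p of 0.0096. In polyA RNA, ATH1 was lost without the first library of any of the 4 groups, TPS3 without the second EY0690 glucose library, and NTH2 without the second library of either EY0690 group, with edgeR adjusted p-values of 0.0523 to 0.0808.

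**Figure D5:**
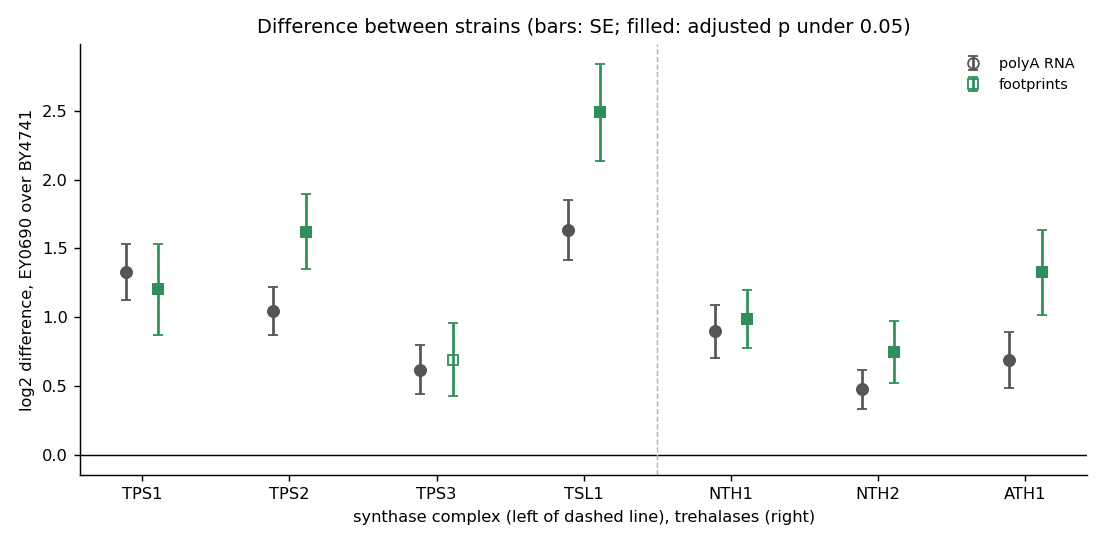
Log2 difference, EY0690 over BY4741, of polyA RNA (circles) and footprints (squares) for each gene, with SE as bars and filled symbols at an adjusted p under 0.05. All values are above 0, TSL1 is highest at 1.64 and 2.49, and the TPS3 footprint value of 0.69 is open.

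The response to starvation was not shown to differ between the strains for any of the 7 genes. In polyA RNA 9 of 5304 genes passed this strain by condition test, 0.170%, and in footprints none of 5018 passed with edgeR, 152 had an unadjusted p under 0.05, and DESeq2 called 3. For TSL1 the difference between strains in the footprint response was -0.72 ± 0.67, with a 95% interval of -2.04 to 0.60. In the polyA response it was 0.00, with no interval given, since an SE computed from F is unstable for a value this near 0. For TPS2 it was -0.55 ± 0.34 in polyA RNA, with -1.21 to 0.12.

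Most genes that supply the substrates of the complex were also higher in polyA RNA. Of 7 genes for glucose phosphorylation and UDP-glucose supply, 6 were higher in polyA RNA, 3 in footprints, and 2 were lower in occupancy, where 20.4%, 2.93% and 1.06% of all genes were. The medians were 2.88, 1.37 and -1.30. The hexokinase gene HXK1 changed by 5.39 ± 0.35 in polyA RNA and 2.33 ± 0.40 in footprints, with an occupancy change of -2.99 ± 0.56. PGM2, the major phosphoglucomutase, changed by 4.27 ± 0.23 in polyA RNA and 2.91 ± 0.47 in footprints, and UGP1, which makes UDP-glucose, by 2.09 ± 0.19 in polyA RNA with an occupancy change of -1.39 ± 0.33. EMI2 was also called in both assays, at 3.53 and 2.71. GLK1 at 2.88 and HXK2 at 0.94 passed in polyA RNA, and PGM1 did not pass.

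Regulators of Nth1 and of protein kinase A are named here as changed because they passed in polyA RNA, where 20.4% of all genes passed as higher. None of those named passed in footprints, where 2.93% of all genes passed as higher. The kinase subunit gene TPK2 changed by 1.93 ± 0.18 in polyA RNA and by -1.50 ± 0.27 in occupancy, while TPK3 fell by 0.84 on the log2 scale in polyA RNA. BCY1, the inhibitory subunit, changed by 1.36 ± 0.17. DCS2 changed by 3.61 ± 0.21, with an occupancy change of -1.94 ± 0.46, and DCS1, whose product inhibits Nth1, by 1.55 ± 0.15. BMH1, a 14-3-3 gene, changed by 0.41 ± 0.14. BMH2 did not pass in polyA RNA, at 0.32 ± 0.15 with an edgeR adjusted p of 0.109. MAL11 was not found by this name among the deposited genes.

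Glycogen is the other storage carbohydrate of yeast. Of 7 glycogen enzyme genes 6 were higher in polyA RNA, 3 in footprints, and 3 were lower in occupancy, where 20.4%, 2.93% and 1.06% of all genes were. The medians were 2.83, 1.51 and -1.49. The branching enzyme gene GLC3 changed by 5.24 ± 0.21 in polyA RNA and 2.52 ± 0.30 in footprints, and the phosphorylase gene GPH1 by 5.06 ± 0.38 and 1.77 ± 0.28. The synthase gene GSY1 stood at 5.08 ± 0.37 in polyA RNA and at -3.51 ± 0.62 in occupancy, where GPH1 stood at -3.23 ± 0.52 and GLC3 at -2.65 ± 0.37. The debranching enzyme gene GDB1 passed in both assays, at 2.83 ± 0.20 and 1.53 ± 0.31, and GSY2 at 2.42 and the glycogenin gene GLG1 at 2.40 passed in polyA RNA. The initiation region share rose for GLC3, GPH1 and the other synthase gene GSY2 among them, for TPK2 among the regulators, and for HXK1 among the supply genes, where 2.10% of all genes rose.

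The genes whose log2 CPM followed each member most closely were found by Pearson's r over the 16 polyA and footprint libraries, centred within strain and assay. The closest to TPS1 was TPS3, at r = 0.988, followed by VID30 at 0.984 and GLK1 at 0.978. TPS2 was followed by VID30 at 0.984, HXK1 at 0.983 and YMR291W at 0.982, and TPS3 by TPS1, FMP40 at 0.977 and RAS2 at 0.975. TSL1 was followed by DCS2 at 0.975, GDB1 at 0.974 and PGM2 at 0.971. ATH1 also had DCS2 first, at 0.982, with PHM7 at 0.973 and SOL4 at 0.959. NTH1 had UGP1 at 0.960, FMP40 at 0.951 and XBP1 at 0.946, and NTH2 had GSM1 at 0.968, UBP11 at 0.967 and CMK1 at 0.966. These values are descriptions, and the points share conditions, libraries and depth.

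No 28-base word of the TPS1, TPS2, TPS3, TSL1 or ATH1 coding sequence occurred elsewhere in the R64 genome. For NTH1 and NTH2, 6 of 2229 words (0.269%) and 6 of 2316 words (0.259%) did, from 1 run of 33 bases that both genes carry, in capitals here with the bases around it on the coding strand.
NTH1, chrIV:451457-451519, minus strand: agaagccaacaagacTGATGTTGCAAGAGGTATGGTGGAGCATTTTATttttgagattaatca
NTH2, chrII:240178-240240, minus strand: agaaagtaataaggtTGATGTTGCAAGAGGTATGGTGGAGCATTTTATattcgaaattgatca
The treatment of reads from this run in the authors' counting is unstated in the sources used here.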

How the data were processed

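The authors deposited read counts per gene in 2 regions of the coding sequence, an initiation region and the downstream rest, per the file headers. Reads were aligned with Bowtie 0.12.8 to R64, per the submitters' processing notes. The counting program and the region bounds are unstated in the sources used here. Of 22 samples, 18 had a column of their own, the EY0690 total and RiboZero RNA was pooled into 2 columns, and 2 further columns were not used. In the deposited counts 80 blank cells were read as 0.

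Downstream counts were tested with edgeR 4.0.16 (quasi-likelihood, TMM, R 4.3.3, limma 3.58.1) with Benjamini-Hochberg adjustment over all genes with 10 or more counts in at least 4 libraries. The response and strain tests fitted strain and condition, occupancy added assay, and the initiation region test fitted region by condition with each library as a block. DESeq2 1.42.0, other scalings and left-out libraries were alternatives. The SE is the log2 change over the square root of F. The selection test used the BY4741 total RNA libraries and all polyA libraries, since the EY0690 column is pooled. Python 3.11.15, pandas 2.3.3, SciPy 1.17.1 and matplotlib 3.10.9 did the rest. The scripts were tested on simulated data.

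Deviations of same-numbered libraries from their group means correlated at 0.306 (EY0690) and 0.147 (BY4741) in polyA RNA and at 0.209 and 0.681 in footprints, so the numbers were taken to pair the samples. The printed calls come from fits without that pairing, and the calls that a block for it changes are given beside them. All 7 members were named in each comparison, list genes where they passed, except 1 regulator that is not reported here, and the 3 genes most like each member. The members and lists were chosen with earlier results of these data known. Of 5381 gene IDs 5378 matched R64, whose coordinates are printed.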

Additional observations from a re-analysis of the deposited data

How the results depend on the processing

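All 7 polyA responses kept their direction under every alternative run, and NTH2 lost its call in BY4741 alone (0.83, edgeR adjusted p of 0.0588). The footprint calls are the least settled, since they change with single libraries, and the cause was not tested. A footprint change that did not pass is not shown to be absent. EY0690 libraries are shallow, while the starved BY4741 footprint libraries were the least alike. Their log2 CPM correlated at r = 0.876, against 0.946 to 0.962 within the other footprint groups. The part of depth and of this spread in the calls was not tested.

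With library number as a block, pairing the libraries, 3 members and 324 genes were higher and 105 lower in footprints, 2 members and 152 genes were lower and 94 higher in occupancy, and 5 genes were higher and 7 lower in the strain by condition footprint test. There TPS2 stood at 0.017 and NTH1 at 0.0055, and TSL1 at -0.014 in polyA RNA. The block changed no other call of a member in the polyA, footprint, occupancy and strain by condition tests, and was not run for the strain difference or initiation region tests.

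With library size only, 1 member was higher and 24 genes were lower in footprints (TSL1 at 1.29, adjusted p of 0.0504), 2 members were lower and 4 genes higher in occupancy, and the strain by condition values were -0.16 for TSL1 in polyA RNA and -0.30 for TPS3 in footprints. This scaling shifts starved over glucose by -0.11 in polyA RNA and -0.16 in footprints. It also ended the NTH2 and ATH1 strain calls in footprints (0.255 and 0.0921). With DESeq2, 240 genes were higher and 59 lower in footprints, 2 members and 142 genes lower and 58 higher in occupancy, 15 higher and 22 lower in the strain by condition polyA test (TSL1 -0.036), 2 and 1 in that of footprints (NTH1 0.020), and 2 lower in the selection test. With RLE scaling, 8 genes were lower in footprints, and the strain by condition values were -0.032 for TSL1 in polyA RNA and 0.018 for NTH1 in footprints. With both regions summed, 253 genes were higher and 20 lower in footprints, and 3 higher and 17 lower in occupancy.

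In EY0690 alone, 654 genes were lower in polyA RNA, 282 higher and 145 lower in footprints, and 83 higher and 96 lower in occupancy. In BY4741 alone, 376 were higher and 5 lower in polyA RNA, 0 members, 1 gene higher and 0 lower in footprints, and 0 higher and 0 lower in occupancy. Without both second BY4741 footprint libraries, 4 members and 380 genes were higher and 199 lower in footprints, 2 members and 110 genes lower and 92 higher in occupancy, and 71 genes lower in the initiation region share (NTH1 -0.076, NTH2 -0.29). The strain by condition footprint test then had 11 higher and 37 lower, with TPS3 at -0.35, an alternative chosen after seeing the data.

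With 1 library left out at a time, 79 to 333 genes were higher and 1 to 154 lower in footprints, with 0 to 4 members higher. Occupancy had 1 to 64 higher, 19 to 161 lower and 0 to 4 members lower, polyA RNA 667 to 1124 lower, and the initiation region share 30 to 140 higher and 7 to 119 lower, with NTH2 from -1.06 to 1.22. The strain difference in footprints had 310 to 871 higher and 214 to 854 lower. In the strain by condition footprint test 0 to 2 genes were higher and 0 to 26 lower, with TPS1 from -0.79 to 0.77, TPS2 from -0.49 to 0.52, TPS3 from -0.46 to 0.71, TSL1 from -1.25 to 0.15, NTH1 from -0.26 to 0.32, NTH2 from -0.65 to 0.13 and ATH1 from -0.77 to 0.31. In polyA RNA it had 0 to 34 higher and 0 to 39 lower, with TPS1 from -0.61 to 0.22, TPS3 from -0.46 to 0.25, TSL1 from -0.51 to 0.46, NTH2 from -0.061 to 0.34 and ATH1 from -0.078 to 0.59.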
